A study of Mus musculus with 9 samples.

Results

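The cytosolic ribosomal protein genes encode the protein parts of the ribosome that translates nuclear messages. They were taken as every row whose symbol is Rpl or Rps followed by a number, with or without a final a or x, together with Rplp0, Rplp1, Rplp2 and Rpsa. In all, 76 of the 23951 genes met this rule in both FPKM tables, 46 of the large subunit and 30 of the small subunit. RNA was sequenced from crypts of the mouse jejunum, the proliferative pits of the small intestine, in 3 libraries for each of 3 groups, numbered 0 to 2. Double mutants (Smad4f/f; Ex3f/+;Villin-CreER(T2)) lost Smad4 and carried 1 beta-catenin allele whose exon 3 is removed by Cre, which stabilises the protein. Smad4 KO mice (Smad4f/f;Villin-CreER(T2)) lost Smad4 alone. Mutant mice were given tamoxifen daily for 4 days, and their crypts were taken 1 day later. The controls are given as vehicle-treated in the sample labels and as uninjected in the design text, and their own alleles are not stated. Villin-CreER(T2) is active in the intestinal epithelium, so any other cells in the preparation keep their alleles. Tamoxifen, Cre activity and genotype cannot be told apart here, and neither the ages of the mice nor separate mice for each library are stated.

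A ribosome holds 1 copy of almost every ribosomal protein, and its large and small subunits are put together in the nucleolus from these proteins and ribosomal RNA. Ribosomal protein messages are abundant in dividing cells such as crypt progenitors. Most of them begin with a short run of pyrimidines, the terminal oligopyrimidine (TOP) motif, through which mTOR and LARP1 control their translation. They are also the commonest source of processed pseudogenes in mammalian genomes, copies of the messenger RNA written back into DNA. A read from such a message can therefore match several places in a genome.

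The share of coding sequence that each gene has in common with others was measured first, because it bears on every level given afterwards. Every 50-base window of each coding sequence was searched for in the transcripts of all other genes of the GENCODE M21 annotation (GRCm38), a newer build than the mm9 build of the deposited values. At least 1 window was found elsewhere for 75 of the 76 genes, and 74 of the 76 shared at least 1 window with an annotated pseudogene. In 27 genes every window was found in another gene. The stretches below show such sequence, with a 50-base window in capitals and 10 bases on each side.
Rpl23a (chromosome 11, window found in 18 other genes, 17 of them pseudogenes): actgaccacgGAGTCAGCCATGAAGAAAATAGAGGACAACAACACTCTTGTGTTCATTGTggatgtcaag
Rps23 (chromosome 13, 12 other genes, 9 of them pseudogenes): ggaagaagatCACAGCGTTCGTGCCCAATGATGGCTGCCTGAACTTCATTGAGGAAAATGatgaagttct
Rpl10 (chromosome X, 10 other genes, 9 of them pseudogenes): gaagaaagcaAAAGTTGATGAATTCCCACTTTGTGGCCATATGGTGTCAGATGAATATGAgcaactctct
Rpl34 (chromosome 3, 9 other genes, all pseudogenes): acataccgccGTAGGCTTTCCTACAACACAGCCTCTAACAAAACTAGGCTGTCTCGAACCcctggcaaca
These genes are shown because they were called higher in the double mutants.

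The measured levels of these genes, whose proteins are mostly present in equal numbers in a ribosome, spanned more than 3 orders of magnitude. FPKM is a count of fragments scaled by transcript length and library size. This scaling does not settle where reads that match several genes are counted, so levels of different genes are set side by side only as listed values. Among the highest, Rpl8, a large-subunit protein near the peptidyl transferase centre, averaged 1243 ± 25.2 FPKM in double mutants, 1056 ± 168 in Smad4 KO and 1056 ± 122 in controls (SD, n = 3 each, controls of the Smad4 KO table). Next in the control order stood Rpl4 (836.6 FPKM), Rplp1 (823.6) and Rps15 (765.5), and the ranges of Rpl4, Rplp1 and Rps15 over the control libraries overlapped. At the other end, Rpl23a, a protein beside the exit of the peptide tunnel, averaged 0.298 FPKM in controls. The median gene stood at 25.1 FPKM in controls. The 20 highest genes held 87.4% of the summed control FPKM of the 76, and the 5 highest held 38.3%. In controls 24 genes reached 100 FPKM, 26 lay from 10 to 100, 23 from 1 to 10 and 3 below 1, and 6 of the 76 were among the 100 genes of highest control level.

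**Figure D1:**
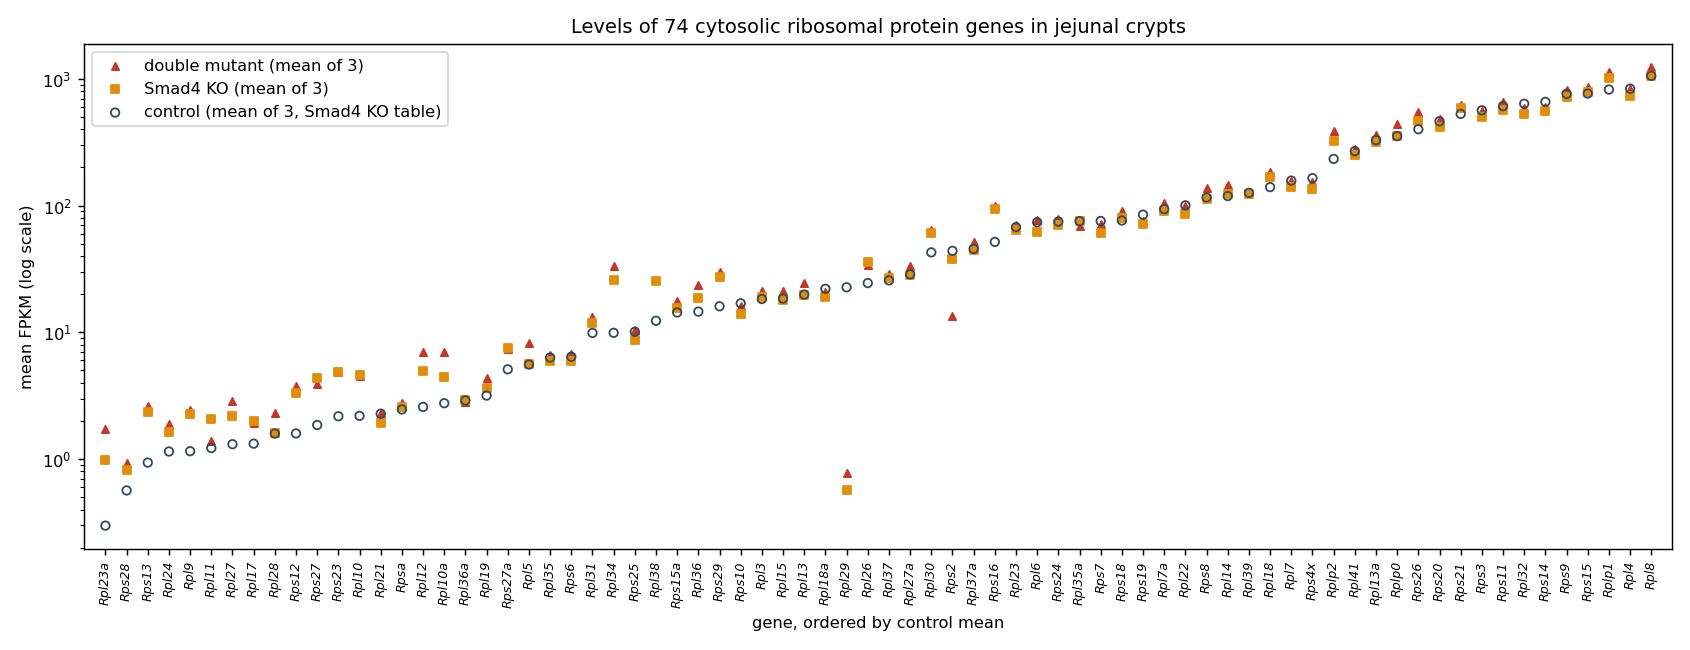
Mean FPKM (log scale, n = 3 libraries) of 74 cytosolic ribosomal protein genes, ordered by their control mean, for double mutants (triangles), Smad4 KO (squares) and controls (circles, values of the Smad4 KO table). Control means run from 0.298 FPKM for Rpl23a to 1056 FPKM for Rpl8, and Rpl29 is the gene whose mutant means lie farthest below its control mean.

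Only Rps28, a small-subunit protein near the mRNA exit, averaged below 1 FPKM in every group. It was listed at 0.487, 2.32 and 0 FPKM in double mutants 0, 1 and 2, at 1.33, 1.12 and 0 in the Smad4 KO libraries, and at 1.26, 0 and 0.44 in controls (Smad4 KO table). Each group thus had 1 library listed at 0, and an exact 0 in such a file is only a listed value. Below 5 FPKM in every group were 18 genes, among them Rpl9, Rpl10, Rpl11, Rpl21, Rpl23a, Rpl24, Rpl28, Rps12, Rps13, Rps23, Rps27 and Rpsa. Every window was shared in 16 of these 18, and 84.8% and 98.8% of windows in Rps12 and Rpsa. Of 15 housekeeping genes known for many processed pseudogenes, the 2 lowest were also near 0: Gapdh averaged 1.10 FPKM in double mutants and 0.634 in controls, and Ppia 0.764 FPKM in double mutants and 0.472 in controls. The other 13 were higher, from 6.90 FPKM in controls (Hmgb1) to 1004 (Eef1a1), so a low level was not general among them. The 14 genes known for few pseudogenes that were measured lay between 15.1 (Tbp) and 303 FPKM (Sdha) in controls.

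Level and shared sequence ran opposite ways over the 76 genes (Spearman's rho = -0.823 between the percent of windows shared and the control mean FPKM, across genes that share libraries and are not independent replicates). The classes that follow were set after the values were seen. The 11 genes with under 50% of windows shared had control means of at least 100.5 FPKM, with a median of 637. With 50 to under 80% shared, 11 genes had a median of 158 FPKM, and with 80 to under 100% shared, 27 genes had a median of 42.7. The 27 genes with every window shared had control means from 0.298 to 51.7 FPKM, with a median of 2.48. The sources used here do not give how the alignment placed reads that match several genes, and its part in these levels was not tested.

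**Figure D2:**
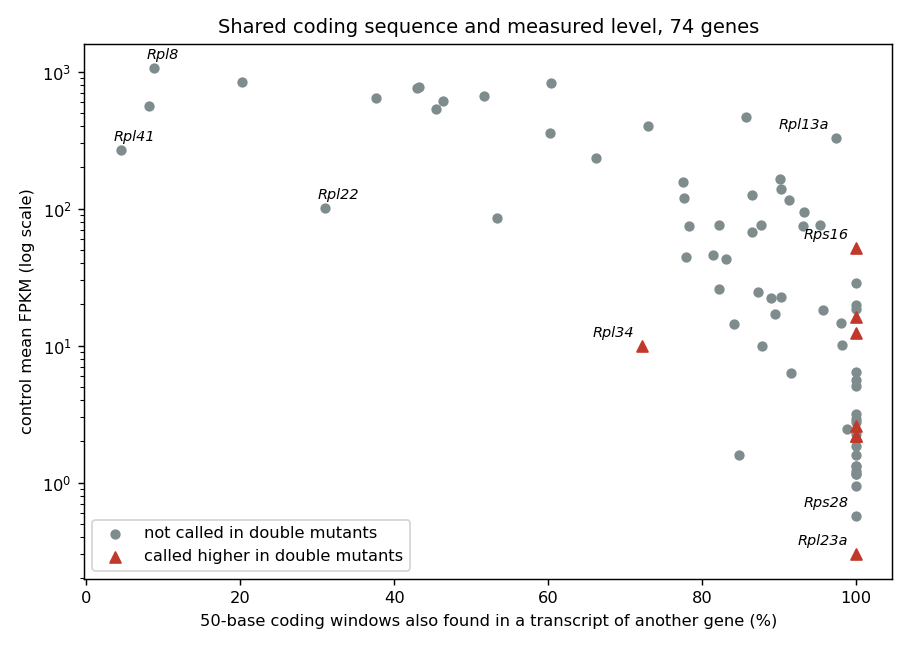
Percent of 50-base coding windows that were also found in a transcript of another gene (x axis) against the mean control FPKM (y axis, log scale) for 74 genes, with the genes called higher in double mutants as triangles. Rpl8 (8.73% shared, 1056 FPKM) and Rpl23a (100% shared, 0.298 FPKM) have the highest and lowest levels plotted, and 7 of the 8 called genes lie at 100%.

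The deletion was visible in the libraries used. Smad4 stood at 11.2, 10.2 and 9.95 FPKM in double mutants against 47.5, 58.8 and 49.8 in controls, and at 11.0, 9.96 and 10.8 FPKM in Smad4 KO against 46.1, 55.5 and 47.8 in controls, each in its own table. Summed markers of differentiated enterocytes (15 genes) were lower in all double-mutant libraries (1419 to 2662 FPKM) than in controls (4570 to 12627). Of the 15, 11 were called lower, against 9.09% of all genes. In Smad4 KO 0, 1 and 2 the same sum was 15602, 1367 and 2617 FPKM, against 4431 to 12106 in controls, with none called. Smad4 KO 1 and 2 thus lay below every control, and Smad4 KO 0 above every control. Mesenchymal markers were highest in Smad4 KO 2 (89.3 FPKM) and double mutant 0 (56.6), against at most 23.9 elsewhere. In double mutants 2 of 11 stem and progenitor markers (Lgr5 and Smoc2) were called higher, against 9.39% of all genes, with all 11 log2 fold changes positive. There 6 of 9 tested immune markers were called lower, against 9.09% of all genes. Smad4 KO 0 stood apart in summed Paneth markers (10163 FPKM, against 72430 and 149771 in Smad4 KO 1 and 2 and 61544 to 160856 in controls) and in stem and progenitor markers (560 FPKM, against 1440 and 1524 in Smad4 KO 1 and 2 and 953 to 2012 in controls). In whole crypts, fewer cells of a type and less RNA per cell cannot be told apart, and the part of these cell types in the results below was not tested.

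In the double mutants 8 ribosomal protein genes were higher and none was lower, in a comparison that asks what Smad4 loss with stabilised beta-catenin changed in crypts. Rps29, Rpl34, Rpl23a, Rps23, Rps16, Rpl12, Rpl38 and Rpl10 passed limma at a Benjamini-Hochberg adjusted p below 0.05. They were 10.7% of the 75 genes that reached the filter of 1 FPKM, and 9.39% of all 11762 genes tested were called higher, so the share was near the background. None was called lower, where the background was 9.09%, and none had an unadjusted p below 0.05 in that direction, against 18.4% of all genes. Unadjusted p-values below 0.05 for a higher level were found for 19 genes (25.3%, against 18.2% of all genes). In 23 of the 75 (30.7%, against 21.3% of all genes) all 3 double mutants lay above all 3 controls, and in none did they all lie below, against 21.3% of all genes. Rpl23a and Rps13 are among the 23 and reached the filter only through the mutants, with control means of 0.312 and 0.978 FPKM. Both thus had to be higher. They also count in the 19 and in the positive changes given next, and Rpl23a counts in the 8 called and their 10.7%. The log2 fold change of FPKM + 1 was positive for 55 of the 75 (73.3%, against 49.9% of all genes). Its median was 0.16, against -0.00 over all genes tested, and lay between 0.02 (each library centred on these same genes) and 0.25 under the other scalings and settings tried. The number called higher was 0 without double mutant 0 or without double mutant 2, 3 without double mutant 1, and 4 or 5 without any 1 control.

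**Figure D3:**
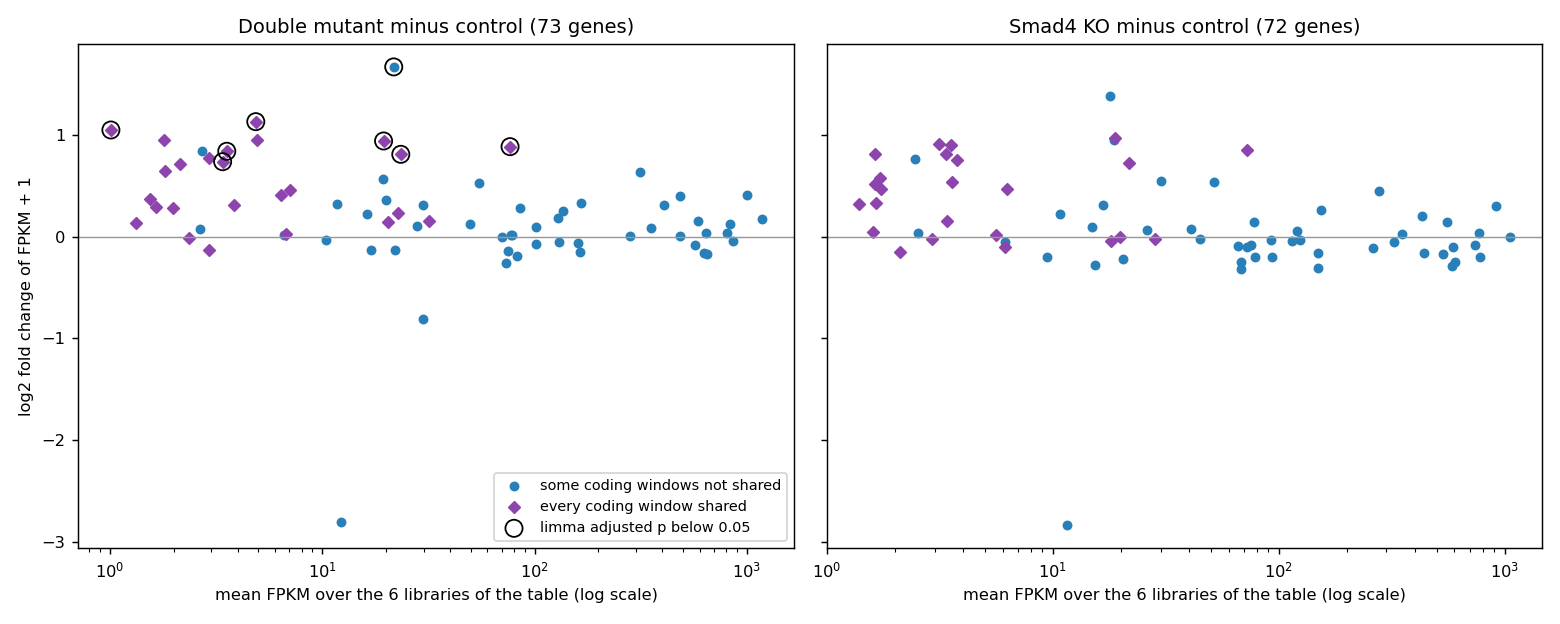
Log2 fold change of FPKM + 1 (y axis) against the mean FPKM over the 6 libraries of a table (x axis, log scale) for double mutants minus controls (left, 73 genes) and Smad4 KO minus controls (right, 72 genes). Diamonds are genes with every coding window shared, and rings mark limma adjusted p below 0.05, which 8 genes reached on the left and none on the right. Rpl34 stands highest in both panels (1.67 and 1.38) and Rpl29 lowest (-2.80 and -2.84).

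Among the small-subunit genes called, Rps29, a zinc-binding protein of the subunit head, was at 32.2, 31.2 and 26.9 FPKM in double mutants 0, 1 and 2, against 14.7, 18.2 and 17.4 in controls. The groups were well apart, with a log2 fold change of 0.81 (SE 0.12, limma adjusted p = 0.0155). Rps16, which lies near the decoding site, was at 91.2, 113 and 94.3 FPKM in double mutants and 60.7, 60.7 and 40.6 in controls (log2 fold change 0.88, SE 0.19, limma adjusted p = 0.0289). Its listed values were the highest of the 8. Rps23, whose loop reaches the decoding centre, was at 5.72, 4.79 and 4.01 FPKM in double mutants and 2.87, 2.1 and 1.84 in controls (log2 fold change 0.84, SE 0.18, limma adjusted p = 0.0289). None of these 3 had a coding window of its own.

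Among the large-subunit genes called, Rpl34 changed most, with 35.7, 34.3 and 29.4 FPKM in double mutants against 14.9, 5.95 and 10.1 in controls. Its mean was 33.1 ± 3.33 FPKM in double mutants and 10.3 ± 4.48 in controls (SD, n = 3 each), a log2 fold change of 1.67 with an SE of 0.29 (limma adjusted p = 0.0203). It was the 1 called gene with windows of its own, with 72.2% of windows shared. Rpl38, a small protein known from mouse mutants with altered translation of Hox messages, was at 33.2, 26.1 and 18.8 FPKM in double mutants and 14.9, 13.4 and 10.4 in controls (log2 fold change 0.94, SE 0.23, limma adjusted p = 0.0386). Rpl12, at the base of the stalk, was at 8.83, 4.95 and 7.37 FPKM in double mutants and 2.48, 1.78 and 3.81 in controls (log2 fold change 1.13, SE 0.27, limma adjusted p = 0.0371). In both genes the lowest double mutant still lay above the highest control.

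Rpl10, which joins the large subunit late in its maturation, was at 5.21, 3.44 and 4.88 FPKM in double mutants and 1.97, 2.12 and 2.79 in controls (log2 fold change 0.74, SE 0.18, limma adjusted p = 0.0394). Rpl23a was at 1.96, 1.79 and 1.38 FPKM in double mutants and 0.403, 0.388 and 0.144 in controls (log2 fold change 1.05, SE 0.19, limma adjusted p = 0.0217). Rpl23a reached the filter only through the mutants, so it had to differ, and its call is given as a description. Just outside the threshold were Rpl27, with a limma adjusted p of 0.0521, and Rplp2, with 0.0642. With 3 libraries against 3, an exact two-sided permutation test of a single gene cannot go below 0.1, so the calls rest on limma's pooled estimate of the spread.

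**Figure D4:**
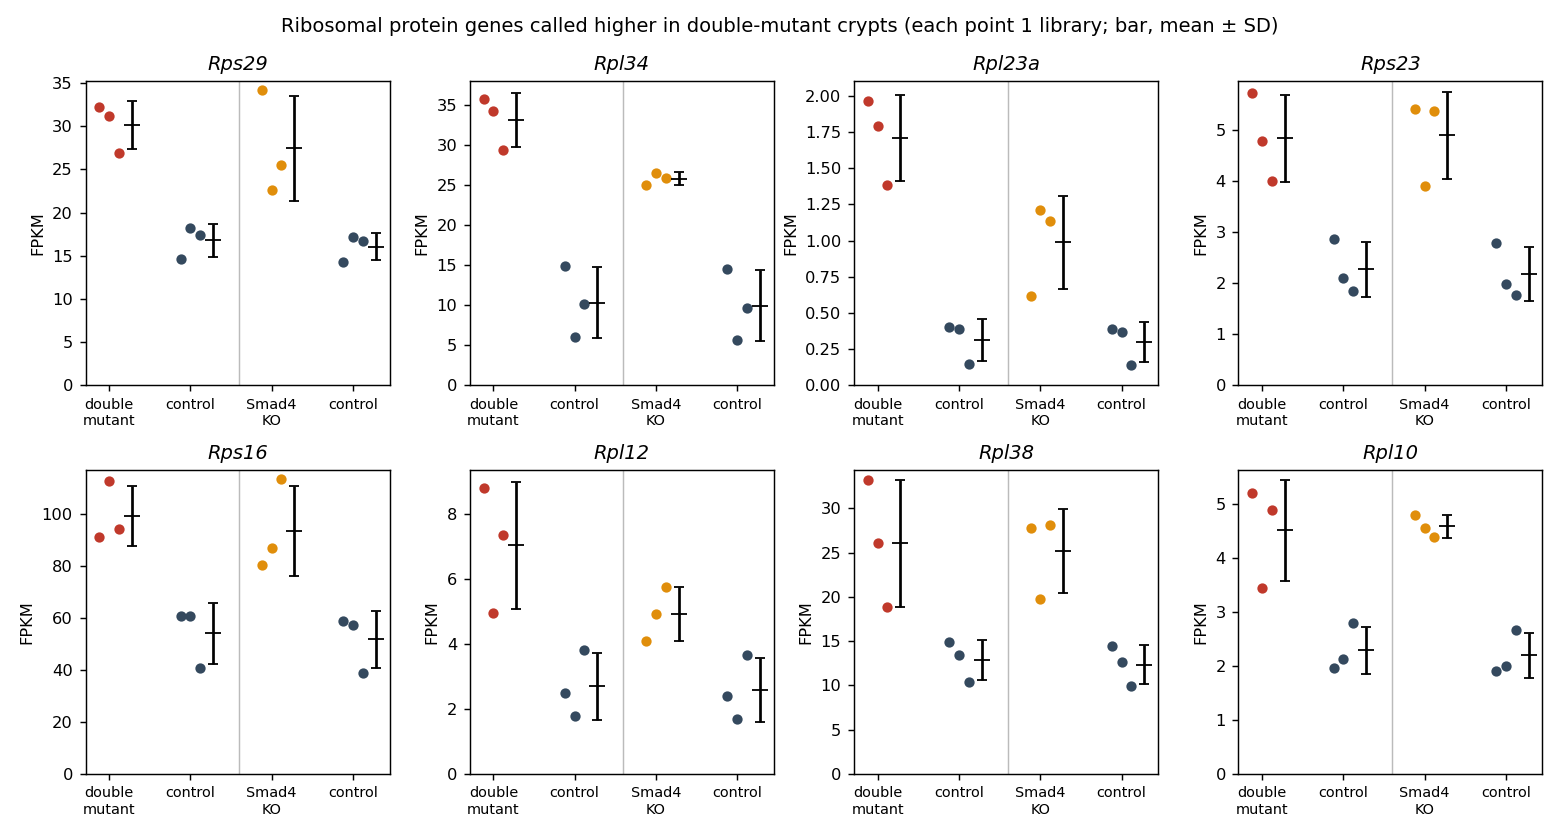
FPKM of each library (points) with the mean ± SD of 3 libraries (bars) for the 8 genes called higher in double mutants; double mutants and their controls stand left of the line, Smad4 KO and the same controls in their own table right of it. The double mutants lie above every control in all 8 panels, and the Smad4 KO libraries do so as well, though no Smad4 KO difference passed the test and Rpl23a was below the filter there.

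Loss of Smad4 alone gave no call among these genes. Of the 74 tested, 0 were called higher and 0 lower by limma, where the background was 0.00844% and 0.0253% of 11849 genes. At an unadjusted p below 0.05, 12 were higher (16.2%, against 9.76% of all genes) and 0 lower (against 9.34%). In 14 (18.9%, against 14.2% of all genes) the Smad4 KO libraries all lay above all controls, and in 0 all below, against 12.2%. The log2 fold change was positive for 38 of the 74 (51.4%, against 49.6% of all genes). The median log2 fold change was 0.02, against -0.00 over all genes tested, and it lay between -0.05 and 0.09 over the settings tried, so it had no stable sign. Without control 0, 1 gene (Rpl29) was called lower.

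Rpl10 had the smallest p in Smad4 KO, with 4.8, 4.55 and 4.39 FPKM in Smad4 KO 0, 1 and 2 against 1.91, 2.0 and 2.67 in controls (log2 fold change 0.81, SE 0.15, limma adjusted p = 0.111). Rpl38 was at 27.7, 19.7 and 28.1 FPKM in Smad4 KO and 14.4, 12.6 and 9.96 in controls (log2 fold change 0.97, limma adjusted p = 0.121). Rpl34 was at 24.98, 26.5 and 25.9 FPKM in Smad4 KO and 14.5, 5.62 and 9.67 in controls (log2 fold change 1.38, limma adjusted p = 0.130). In all 3 genes the groups did not overlap. Rps23 (log2 fold change 0.90), Rps29 (0.72) and Rps16 (0.85) also had groups that did not overlap, with limma adjusted p-values of 0.124, 0.142 and 0.153. The lowest log2 fold changes after Rpl29 were those of Rps7 (-0.32), Rps4x (-0.31), Rpl32 (-0.29) and Rps10 (-0.28), with limma adjusted p-values from 0.432 to 0.582. Both mutant groups were set against the same 3 control libraries, so the side of a gene in one comparison is not independent of its side in the other, and the difference between the mutant groups was not tested.

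The proteins of the stalk, where elongation factors dock, were above 200 FPKM on average in every group. Rplp2 was at 484, 314 and 356 FPKM in double mutants, against 225, 246 and 262 in controls, and at 285, 274 and 417 in Smad4 KO, against 218, 232 and 251 in controls. Its mutant libraries lay above all controls in both comparisons (log2 fold change 0.63 and 0.45, limma adjusted p = 0.0642 and 0.288). Rplp1 was at 1164, 1160 and 1098 FPKM in double mutants and 817, 998 and 768 in controls (log2 fold change 0.41, limma adjusted p = 0.142). Rplp0, which anchors the stalk, was at 480, 503 and 347 FPKM in double mutants and 443, 233 and 427 in controls, groups that overlapped (log2 fold change 0.31, limma adjusted p = 0.490).

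Rpl5 and Rpl11, which with the 5S RNA can bind Mdm2 and so stabilise p53, were both low and had every window shared. Rpl5 was at 7.10, 9.67 and 8.08 FPKM in double mutants and 4.8, 7.66 and 5.04 in controls (log2 fold change 0.46, limma adjusted p = 0.141). Rpl11 was at 0.988, 1.32 and 1.83 FPKM in double mutants and 1.33, 0.361 and 2.12 in controls, which overlapped (log2 fold change 0.13, limma adjusted p = 0.801). In Smad4 KO their log2 fold changes were 0.02 and 0.51, with limma adjusted p-values of 0.973 and 0.481. Of the p53 arm (Trp53, Mdm2, Mdm4 and Cdkn1a) 0 of 4 genes were called in either comparison. In double mutants 2 of the 4 were higher at an unadjusted p below 0.05, against 18.2% of all genes.

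Several genes with known duties of their own stayed within the spread of the libraries. Rps6, the substrate of S6 kinase, was at 7.41, 5.79 and 7.10 FPKM in double mutants and 5.99, 8.74 and 5.44 in controls (log2 fold change 0.03, limma adjusted p = 0.934). Rpsa, the laminin receptor protein, was at 3.06, 2.65 and 2.61 FPKM in double mutants and 2.64, 2.60 and 2.48 in controls (log2 fold change 0.08, limma adjusted p = 0.671). Rpl22, Rpl13a, Rpl41 and Rps4x had double-mutant log2 fold changes of -0.07, 0.08, 0.00 and -0.15, and their libraries overlapped those of the controls. Rps19, the gene most often mutated in human Diamond-Blackfan anaemia, averaged 75.9 ± 5.72 FPKM in double mutants and 88.8 ± 25 in controls (SD, n = 3 each), and the groups overlapped (log2 fold change -0.19, limma adjusted p = 0.564).

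Rps27a, made as a fusion with ubiquitin, and Rps27 did not overlap between the groups. Rps27a was at 8.66, 7.05 and 6.59 FPKM in double mutants and 5.80, 5.17 and 5.03 in controls (log2 fold change 0.41, limma adjusted p = 0.0701). In Smad4 KO it was at 7.68, 6.67 and 8.04 FPKM, against 5.62, 4.87 and 4.82 in controls (log2 fold change 0.47, limma adjusted p = 0.157). Rps27 was at 4.26, 3.32 and 4.18 FPKM in double mutants and 2.52, 2.27 and 1.04 in controls (log2 fold change 0.78, limma adjusted p = 0.0682). Its Smad4 KO libraries were at 4.73, 2.79 and 5.65 FPKM, against 2.44, 2.14 and 0.995 in controls (log2 fold change 0.91, limma adjusted p = 0.201).

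Of the 8 calls in double mutants, 7 fell among genes with no coding window of their own. Of the 26 tested genes with every window shared, 7 were called higher in double mutants, where the background over all genes was 9.39%, and 13 had groups that did not overlap, where it was 21.3%. These counts include Rpl23a, and the 13 also Rps13, which reached the filter only through the mutants and so had to be higher. The median log2 fold change of the 26 was 0.43. Of the 49 tested genes with at least 1 window of their own, 1 was called (Rpl34), with a median of 0.04 in double mutants and -0.04 in Smad4 KO. The 11 genes with under 50% of windows shared, Rpl8 among them, had medians of 0.00 in double mutants and -0.11 in Smad4 KO, and none was called or free of overlap. Genes with every window shared had a median of 0.46 in Smad4 KO, where 10 of 25 did not overlap, against 14.2% of all genes, and 0 were called. Across genes, log2 fold change and percent of windows shared had a Spearman's rho of 0.447 in double mutants (n = 75) and 0.388 in Smad4 KO (n = 74), and log2 fold change and mean FPKM had -0.389 and -0.401. Level and shared sequence moved together, so the 2 cannot be told apart, and the part of multiply matching reads in these changes was not tested.

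By level, 4 of the 23 genes with a mean of 1 to 10 FPKM were called higher in double mutants, against 319 of all 4665 genes of that level (median log2 fold change 0.41, against 0.00). From 10 to 100 FPKM, 4 of 27 were called higher, against 733 of all 6261 genes (median 0.15, against 0.00). At 100 FPKM or more 0 of 25 were called, against 52 of all 836 genes called higher (median 0.04, against -0.05). In Smad4 KO the medians at these 3 levels were 0.33, -0.01 and -0.05. In double mutants 5 of 46 tested large-subunit genes and 3 of 29 small-subunit genes were called higher, both near the 9.39% of all genes. Rpl23a, which reached the filter only through the mutants, is among these 5 and among the 4 called at 1 to 10 FPKM. The medians of the large- and small-subunit genes were 0.24 and 0.08, and a difference between the subunits was not tested.

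Ribosomal protein genes held a similar part of the summed FPKM in all groups. Their share was 1.99, 2.51 and 2.30% in double mutants 0, 1 and 2, 1.88, 2.18 and 1.81% in Smad4 KO, and 1.64, 2.56 and 1.87% in controls. The means were 2.27 ± 0.26% in double mutants, 1.96 ± 0.20% in Smad4 KO and 2.02 ± 0.48% in controls (SD, n = 3 each), and the ranges overlapped. Without the 50 highest other genes the share was 3.47, 3.43 and 3.43% in double mutants, against 2.95, 3.74 and 2.65% in controls. Control 1 was the highest control on either sum. Each tested ribosomal protein gene was also taken on the log2 scale as a deviation from its own mean over the controls. The median deviation of these genes was 0.19 in control 1, -0.09 and -0.10 in controls 0 and 2, and 0.24, 0.18 and 0.09 in the double mutants. The median deviation over all tested genes was within 0.02 in each of these libraries.

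Some genes differed more between libraries of 1 group than between groups. Rps2, a protein of the mRNA entry region, was at 19.8, 0.996 and 19.4 FPKM in double mutants 0, 1 and 2, at 15.1, 97.5 and 2.06 in Smad4 KO, and at 1.42, 117 and 13.4 in controls, whose values here and for the next 3 genes are those of the Smad4 KO table. Rpl3, a core large-subunit protein, was at 39.4, 1.79 and 22.1 FPKM in double mutants, at 16.4, 20.9 and 20.3 in Smad4 KO, and at 19.3, 0.534 and 35.1 in controls. No group of Rps2 or Rpl3 was clear of another, and the highest library stood 82.3 and 65.7 times above the lowest in the group of widest spread. Rpl30, which also binds selenocysteine insertion elements, was low in the library numbered 2 of every group, at 17.8 FPKM in double mutants, 18.6 in Smad4 KO and 11.7 in controls, and from 50.5 to 92.3 in the others.

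Rpl29 was at 1.74, 0.134 and 0.445 FPKM in double mutants and 0.774, 0.385 and 0.537 in Smad4 KO. Its controls 0, 1 and 2 were at 0.142, 37.5 and 30.4 FPKM, so a single control lay with the mutants and the other two far above them. The log2 fold changes of -2.80 in double mutants (SE 1.37, limma adjusted p = 0.192) and -2.84 in Smad4 KO (SE 1.35, limma adjusted p = 0.311) did not pass. Without control 0 they were -4.47 and -4.48, with limma adjusted p-values of 0.0104 and 0.00408. Rpl29 shared windows with 84 other genes, 81 of them pseudogenes, and Rps2 with 71, all pseudogenes. The other low log2 fold changes in double mutants were those of Rps2 (-0.81, limma adjusted p = 0.739), Rpl35a (-0.26), Rps19 (-0.19) and Rps14 (-0.18). That of Rps2 was 0.31 without double mutant 1 and 0.64 without control 1. Over all 76 genes, the median SD of log2 values within groups was 0.223, against 0.200 over all genes of at least 1 FPKM, and 0.172 for the 24 genes of at least 100 FPKM in controls.

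**Figure D5:**
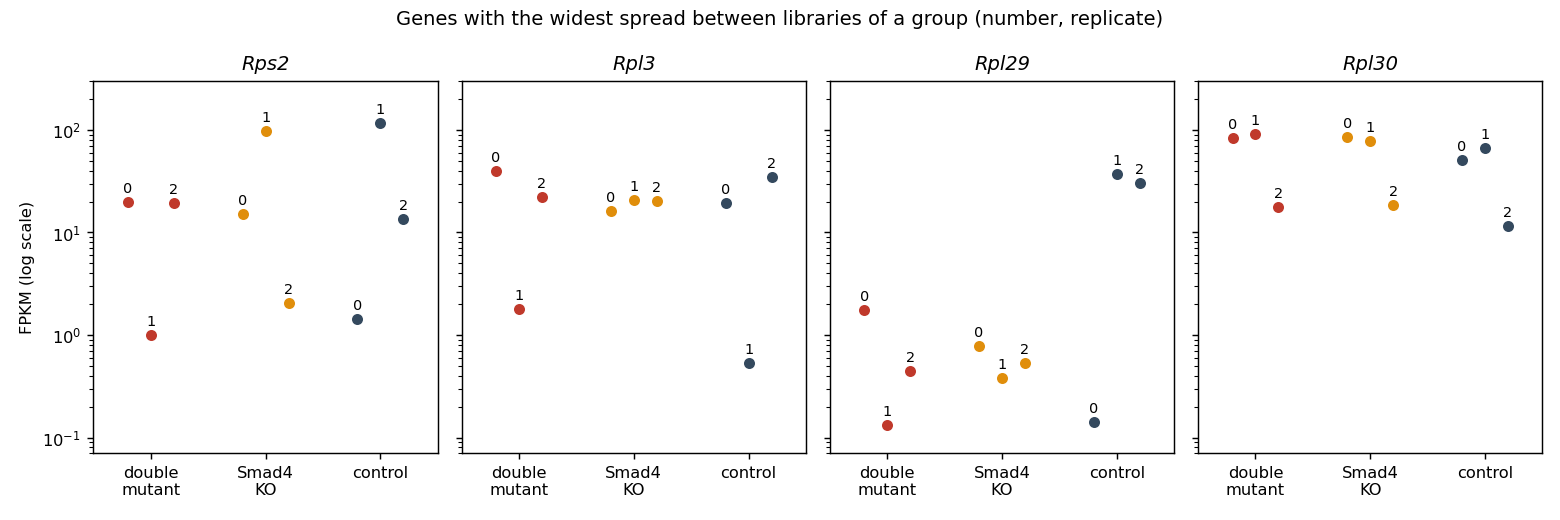
FPKM (log scale) of each library, marked with its replicate number, for Rps2, Rpl3, Rpl29 and Rpl30 in double mutants, Smad4 KO and controls. Values within a group lie up to 264-fold apart (Rpl29 in controls), and the library numbered 2 is the lowest of its group for Rpl30 in all 3 groups.

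Some rows named as ribosomal protein pseudogenes held values far above those of their parent genes, and others lay far below. Rps19-ps3 was between 2.66 and 4.88 FPKM, against 60.7 to 107 for Rps19 (controls of the Smad4 KO table). Rpl31-ps12 was at most 0.587 FPKM, against 8.93 to 14.5 for Rpl31. Rpl34-ps1 was at 316, 318 and 265 FPKM in double mutants, 210, 295 and 319 in Smad4 KO, and 296, 2.19e-07 and 305 in controls 0, 1 and 2 of the Smad4 KO table, while Rpl34 itself stayed below 36 FPKM. In control 1 both the parent and its pseudogene row were the lowest of all libraries. Rplp2-ps1 was at 521, 489 and 457 FPKM in double mutants and 391, 382 and 502 in Smad4 KO. Controls 0, 1 and 2 of the Smad4 KO table were at 308, 311 and 222. All mutant libraries lay above these control values, and for Rplp2 they lay above all controls of their own table. In control 2 Rplp2-ps1 lay below Rplp2 itself (222 against 251 FPKM). With controls of the Smad4 KO table, Rps15a-ps6 was at 34.5 FPKM in control 1 and at most 1.01 in every other library. Rpl14-ps1 was between 380 and 529.7 FPKM throughout. Whether these rows count transcripts of the pseudogene or reads of the parent cannot be told apart in gene-level FPKM.

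Ribosomal proteins whose symbols lie outside the rule gave 0 calls among 9 tested in double mutants and 0 among 8 in Smad4 KO. In each comparison 1 of them was higher at an unadjusted p below 0.05, against 18.2% and 9.76% of all genes. Log2 fold changes were positive for 8 of the 9 and 6 of the 8, against 49.9% and 49.6% of all genes. Their medians were 0.25 and 0.11. Gnb2l1, the gene of the ribosomal scaffold RACK1, averaged 1123 ± 52.7 FPKM in double mutants and 1185 ± 185 in controls (SD, n = 3 each), a level like that of Rpl8. Rps27l, a p53-inducible relative of Rps27, was at 365, 305 and 268 FPKM in double mutants and 217, 260 and 228 in controls (log2 fold change 0.40, limma adjusted p = 0.119). Fau averaged 17.8 FPKM in double mutants and 14.5 in controls (limma adjusted p = 0.404). Rpl22l1 averaged 105 FPKM in double mutants and 99.7 in controls.

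Genes whose products assemble and use ribosomes were counted beside the ribosomal proteins. Their lists were drawn with earlier results of these data known, so the counts are given as descriptions. Of the chaperones and assembly partners of ribosomal proteins, 11 of 17 tested were called higher and 0 lower in double mutants, against 9.39% higher and 9.09% lower of all genes, with a median log2 fold change of 0.64. Bysl, needed to mature the small subunit, was at 14.7, 15.9 and 15.8 FPKM in double mutants and 7.50, 5.80 and 6.92 in controls (log2 fold change 1.09, SE 0.11, limma adjusted p = 0.00997). Rrs1, which brings the 5S particle into the large subunit, averaged 28.03 FPKM in double mutants and 14.2 in controls (log2 fold change 0.93, limma adjusted p = 0.0105), and Grwd1, a chaperone of Rpl3, averaged 32.1 and 15.0 (1.06, limma adjusted p = 0.0121). The double mutants lay well above the controls for all 3. In Smad4 KO these 3 had log2 fold changes of 0.91, 0.74 and 0.85, with limma adjusted p-values of 0.107, 0.111 and 0.111. There 0 of the 17 were called, and 10 were higher at an unadjusted p below 0.05, against 9.76% of all genes.

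Of the translation initiation factors not counted among the TOP messages below, 9 of 27 tested were called higher in double mutants. This compares with 9.39% of all genes, and the median of the 27 was 0.31. Among the 9 called, Eif2b3, a subunit of the exchange factor for eIF2, averaged 15.9 FPKM in double mutants and 8.61 in controls (log2 fold change 0.82, limma adjusted p = 0.0106). Eif4a1, the helicase of cap-bound initiation, averaged 56.2 and 35.4 (0.66, limma adjusted p = 0.0164), and Eif2b4 averaged 35.6 and 26.2 (0.43, limma adjusted p = 0.0208). Of the elongation factors and other messages that carry the TOP motif, 4 of 18 were called higher (Eef1d, Eef1g, Hnrnpa1 and Npm1) and 0 lower, against 9.39% and 9.09% of all genes, with a median of -0.00. The 18 include the initiation factors Eif4b, Eif3e, Eif3f, Eif3h, Eif3k, Eif3l and Eif3m, which the 27 leave out. Their double-mutant log2 fold changes were -0.15, -0.14, -0.14, -0.12, -0.10, 0.19 and 0.06, and none was called. Of the regulators of ribosomal protein transcription and TOP translation, which include Myc, Mtor and Larp1, 0 of 16 were called. At an unadjusted p below 0.05, 1 of the 16 was lower, against 18.4% of all genes. In Smad4 KO 0 genes of these 3 lists were called by limma. At an unadjusted p below 0.05, 5, 2 and 0 of them were higher, against 9.76% of all genes. These lists, drawn with earlier results of these data known, were counted and not tested as sets. Whether they differ from the ribosomal proteins was not tested.

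Promoters in RefSeq (GRCm38.p6) were found for 56 of the 76 genes, in 66 entries of 300 bases. A run of at least 8 bases that are each C or T, within 20 bases of the annotated start on the coding strand, was in 29 of the 66 entries (43.9%), against 16.05% of all 32851 promoters. Runs of A or G of the same length were in 7.58%, against 17.7%. A start with C followed by 4 pyrimidines was annotated in 19.7% of entries, against 2.51%, and the letters CCGGAAG, on either strand anywhere in the 300 bases, in 36.4% against 8.86%. The promoters of 3 called genes are printed from 30 bases before to 20 bases from the start, the longest run of C or T in capitals, to show that such runs were long in some called genes and short in others.
Rpl34, chr3:130730318-130730367, minus strand: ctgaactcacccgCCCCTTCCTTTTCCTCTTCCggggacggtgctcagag
Rpl38, chr11:114668550-114668599, plus strand: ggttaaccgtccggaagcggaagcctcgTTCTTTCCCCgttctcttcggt
Rps16, chr7:28350659-28350708, plus strand: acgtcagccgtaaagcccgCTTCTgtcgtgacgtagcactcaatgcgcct
The longest runs in these entries were 20, 10 and 5 bases. A match is a description of the letters in this window.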

How the data were processed

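The deposited values were FPKM per gene, in 2 tables of 6 libraries that share the controls. The authors used TopHat2 2.1.1, Cuffnorm 2.2.1, Cuffdiff 2.2.1 and the mm9 build, per the submitters' processing notes. Their annotation and their handling of multiply matching reads are not given in any source used. Between the tables each control differed by 1 factor for all genes (1.03, 1.06 and 1.04), so comparisons were made within a table. Read depth is unknown, since FPKM holds no read numbers, and counting intervals cannot be given. Relative depth, estimated from low values, was 0.954 to 1.42 times that of control 0, and summed FPKM ran from 568081 to 758719.

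Limma 3.58.1 (R 4.3.3) was run on log2(FPKM + 1) separately for each table, keeping genes that averaged 1 FPKM or more in its 6 libraries, with a mean-variance trend. The two-sided p-values were adjusted by the Benjamini-Hochberg method over all genes tested and called below 0.05. This scale understates changes of low genes. P-values set the difference between groups against the spread between these libraries. By Xist and Y-linked genes every group held both sexes, with 2 female libraries in each mutant group and 1 among the controls, so sex was not balanced. The code was checked on simulated data. Genes named were those below 1 FPKM in every group, the 5 highest in controls, up to 12 called genes per direction or the 5 largest changes where fewer than 5 were called, genes with roles of their own, and up to 3 called genes of each pathway list. The members and lists were chosen with earlier results of these data known. Genes named for their spread, pseudogene rows and classes of shared windows were chosen after values were seen. Some genes and sequences that these rules chose are not reported here; they stay in the counts and medians, and figures of all genes leave 2 of the 76 out. Shared windows were counted in GENCODE M21 transcripts with Python 3.11.15. Alternatives were the pseudocount, the filter, 5 scalings, the trend, joined tables, a replicate block, sex, each library left out and, chosen after seeing the data, genes with an unshared window and windows of 75 bases.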

Additional observations from a re-analysis of the deposited data

How the results depend on the processing

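No named gene reversed a call. Of 559 double-mutant values under alternatives, 514 kept their side of the threshold, 43 fell short of it and 2 newly passed. Only a called gene can fall short, so all 43 belong to the 8 called genes. The 559 also hold the values of named genes that were not called. Of 508 Smad4 KO values, 504 kept their side and 4 newly passed. Signs changed without a call in 32 and 26 values. The 8 genes called higher in double mutants became 4 without a filter, 4 with a filter of 5 FPKM (where 56 genes were tested), 5 with libraries scaled to their sum without ribosomal protein genes, 3 when centred on these genes (all genes then shifted), 1 among genes with an unshared window, and 0 to 5 with 1 library left out. For these the cause was not tested beyond the genes each setting removes. Rps29 and Rpl34 were each called in 16 of 19 alternatives, Rpl10 in 9 of 18. With 1 library left out, Rpl38 was called in 0 of 6 fits, and Rpl10, Rpl12 and Rps23 in 1 of 6 each. Rpl34 and Rps16 were called in 3 of 6, Rps29 in 4 of 6, and Rpl23a in the 3 where it passed the filter. The number called lower was 0, and 0 to 1 with 1 library left out, in both comparisons. In Smad4 KO 4 genes (Rpl10, Rpl34, Rps23 and Rps29) were called higher with the tables joined. The median of 0.16 in double mutants became 0.25 with the sum without these genes, 0.016 when centred on them and 0.037 among genes with an unshared window. Without the 50 highest other genes the mean shares were 3.44% in double mutants and 3.11% in their controls, and 3.12% in Smad4 KO and 3.14% in their controls. With a limit of 5 FPKM, 18 genes in place of 1 were near 0. With 75-base windows the rho of -0.823 was -0.809. Same-numbered mutant and control libraries correlated at 0.072, 0.132 and 0.0374 in double mutants and at -0.111, 0.223 and -0.0987 in Smad4 KO. In Smad4 KO, mutant 0 with control 2 (0.211) and mutant 2 with control 0 (0.198) were higher than the same numbers. Whether libraries are paired was not tested, and the main fits used no pairing. With the replicate block 8 genes were called higher in double mutants and 0 in Smad4 KO.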
